A study of Mus musculus with 12 samples.

Results

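Genes for subunits of the mitochondrial respiratory chain and of ATP synthase were examined in cultured mouse cardiac stem cells of 2 genotypes. They were chosen by symbol alone: names starting with Nduf and a subunit letter and number, Sdha to Sdhd, names starting with Uqcr, Cyc1, Cycs, the subunit families Cox4 to Cox8, and names starting with Atp5. This took 86 of the 34174 genes in the table. The rule uses names and no measured value, but it was written with earlier results of these data known. By the complex their products belong to, 35 were complex I genes, 4 complex II, 9 complex III, 19 complex IV and 16 ATP synthase, with Cycs for the mobile carrier and 2 genes, Atp5s and Atp5sl, that carry an ATP synthase name without being structural subunits. Ndufa4 bears a complex I name and was counted with complex IV, to which its product is now assigned.

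The cells were cardiac stem cells, labelled as strain C57BL/6, grown on gelatin in serum-containing medium at ambient oxygen (21%). The tested genotype was c-kitCre, a knock-in of the Cre recombinase gene at the Kit locus, and the other was wild-type. No further treatment or age is labelled. Each genotype had 3 numbered cultures with 2 libraries each, and the values used here are 1 per culture and gene (n = 3 per group). Separate animals or a common source line are not specified for these cultures, so the p-values measure only how much these cultures spread.

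The respiratory chain passes electrons from NADH through complex I, or from succinate through complex II, by way of coenzyme Q to complex III, and from there on cytochrome c to complex IV, which reduces oxygen. Complexes I, III and IV pump protons, and ATP synthase uses the resulting gradient to make ATP. All members examined here are encoded in the nucleus, and the heart is among the tissues richest in their products. The subunits encoded by mitochondrial DNA had no rows in the table used here.

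Levels are given as scaled reads, that is, deposited raw values after the per-culture scaling that the authors' normalized values carry. Differences are on the log2 scale, c-kitCre minus wild-type, from a limma fit over all genes with Benjamini-Hochberg adjustment, and "called" means an adjusted p under 0.05. Summed raw values lay between 22371439 and 35963488 per culture. Kit itself went against the labels: its values were 1732, 1738 and 1603 scaled reads in c-kitCre-labelled cultures, against 3.38, 1.55 and 1.17 in those labelled wild-type. A knock-in at this locus is not known to raise Kit above wild-type, so the groups are called here the cultures labelled c-kitCre and the cultures labelled wild-type, and every direction rests on these labels. In 76 of the 79 subunit genes averaging 50 or more scaled reads, culture 1 was the highest of the 3 wild-type cultures. Counts are therefore also given without it.

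Promoter sequences are shown for the members with a difference of at least 2-fold that were found in the RefSeq promoter table (build GRCm38.p6). Each runs 5′ to 3′ from 250 bases before to 50 bases after the start, and capitals mark an NRF1 core (GCATGCGC) or a cyclic AMP response element (CRE, TGACGTCA). NRF1 is a transcription factor known for its sites in respiratory chain genes, and CRE is the site of CREB and related factors. They are Cycs at chr6:50566520-50566819 (minus strand), Ndufa10 at chr1:92473709-92474008 (minus), Ndufa4 at chr6:11907401-11907700 (minus) and Ndufv3 at chr17:31519865-31520164 (plus).
Cycs: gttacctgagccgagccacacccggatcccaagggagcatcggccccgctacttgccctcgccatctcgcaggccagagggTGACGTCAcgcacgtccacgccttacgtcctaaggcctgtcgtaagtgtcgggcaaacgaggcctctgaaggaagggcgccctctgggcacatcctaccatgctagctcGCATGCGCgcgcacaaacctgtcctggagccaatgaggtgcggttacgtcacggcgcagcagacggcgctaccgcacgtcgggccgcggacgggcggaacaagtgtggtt
Ndufa10: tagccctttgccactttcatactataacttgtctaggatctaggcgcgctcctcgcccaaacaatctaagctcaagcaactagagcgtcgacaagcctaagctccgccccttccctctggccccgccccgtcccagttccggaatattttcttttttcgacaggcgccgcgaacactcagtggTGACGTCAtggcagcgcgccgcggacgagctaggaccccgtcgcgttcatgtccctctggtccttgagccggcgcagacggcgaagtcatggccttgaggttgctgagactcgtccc
Ndufa4: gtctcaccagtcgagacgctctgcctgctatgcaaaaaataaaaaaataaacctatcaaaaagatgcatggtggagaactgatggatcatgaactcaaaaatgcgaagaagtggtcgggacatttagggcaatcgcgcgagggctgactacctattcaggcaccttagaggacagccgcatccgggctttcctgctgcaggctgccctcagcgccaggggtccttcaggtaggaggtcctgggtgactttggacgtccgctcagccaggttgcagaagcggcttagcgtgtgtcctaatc
Ndufv3: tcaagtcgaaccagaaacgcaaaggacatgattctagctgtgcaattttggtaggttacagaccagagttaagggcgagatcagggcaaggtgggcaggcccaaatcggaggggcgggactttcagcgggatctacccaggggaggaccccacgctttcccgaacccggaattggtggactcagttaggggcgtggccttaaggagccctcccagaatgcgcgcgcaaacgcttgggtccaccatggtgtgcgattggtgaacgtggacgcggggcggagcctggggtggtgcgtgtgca
The Cycs promoter held 1 NRF1 core and 1 CRE and the Ndufa10 promoter 1 CRE, and none of the 4 motifs searched had a match in the Ndufa4 and Ndufv3 windows. The other 2 motifs were ETS (CCGGAAG), bound by GABPA among others, and ERR (AAGGTCA), bound by oestrogen-related receptors. All 4 were searched on both strands as exact matches, and their letters do not contain one another.

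The table matched 70 of the 86 members, with 76 promoters. Those not matched included Atp5a1, Atp5l2, Cox4i1, Cox4i2, Cox6a2, Cox6c, Cox8c, Cyc1, Ndufa2, Ndufb9, Ndufs1, Sdhc, Uqcrb, Uqcrc2 and Uqcrq. An NRF1 core was in 11 member promoters (14.5%), against 2.71% of the 32851 promoters of the table. ETS letters were in 16 (21.1%, against 8.86%), ERR letters in 8 (10.5%, against 4.72%) and CRE letters in 5 (6.58%, against 1.79%). Among the 16 promoters of genes called lower, 1 held an NRF1 core (Cycs), 2 ETS (Ndufb6 and Ndufs8), 3 ERR (Atp5g3, Ndufb2 and Ndufs5) and 3 CRE (Cycs, Ndufa10 and Ndufb2). Among the other 60 promoters, 10 held an NRF1 core, 14 ETS, 5 ERR and 2 CRE. These are letter matches and are given as a description.

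Across the subunits, 23 genes fell and 2 rose in the cultures labelled c-kitCre, and 59 did not pass the test. The falls included cytochrome c (Cycs), cytochrome c1 (Cyc1), the complex I subunit Ndufs1 and the muscle isoform Cox6a2, while the rises were Cox4i1 of complex IV and Ndufv3 of complex I. The 25 calls were among 84 members tested, since Cox7b2 and Cox8c had a mean under 1 scaled read. That is 29.8% of the members, against 35.5% of all 24151 genes tested. By direction, 27.4% of the members were called lower, against 19.3% of all genes, and 2 of 84 were called higher, against 16.2% of all genes. The median log2 difference was -0.14 over the members and 0.04 over all genes. Most members are highly expressed, and among genes averaging 50 or more scaled reads the share called was 31.6% of 79 members and 48.7% of all 13456 genes. At that level 29.1% of the members were called lower, against 29.2% of all genes, with a median of -0.17 for the members and -0.14 for all genes. A difference of at least 2-fold was called in 9 members, against 25.8% of all genes. The 2 groups of cultures did not overlap in 34 members, 30 of them lower and 4 higher, against 49.5% of all genes. Of all 24151 genes tested, 6345 lay lower without overlap and 5620 higher. Of the 79 members averaging 50 or more scaled reads, 30 lay lower without overlap and 4 higher. Of all 13456 genes at that level it was 5129 lower and 3492 higher.

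The split of calls moved with the scaling and with 1 culture. Without wild-type culture 1, 23 members were called lower and 11 higher, and the median difference was -0.01. When the cultures were centred on the median of all genes, 36 were called lower and 2 higher, with a median of -0.50, and the median of all genes moved to -0.31. When they were centred on genes averaging 50 or more scaled reads, 15 were lower and 9 higher, with a member median of 0.07 and a median of all genes of 0.26. The calls of 15 of the 25 members, among them Cycs, Cyc1, Ndufs1, Ndufa10, Ndufa4, Ndufa2, Cox6a2 and Cox4i1, were made under each of the 16 alternatives run.

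**Figure D1:**
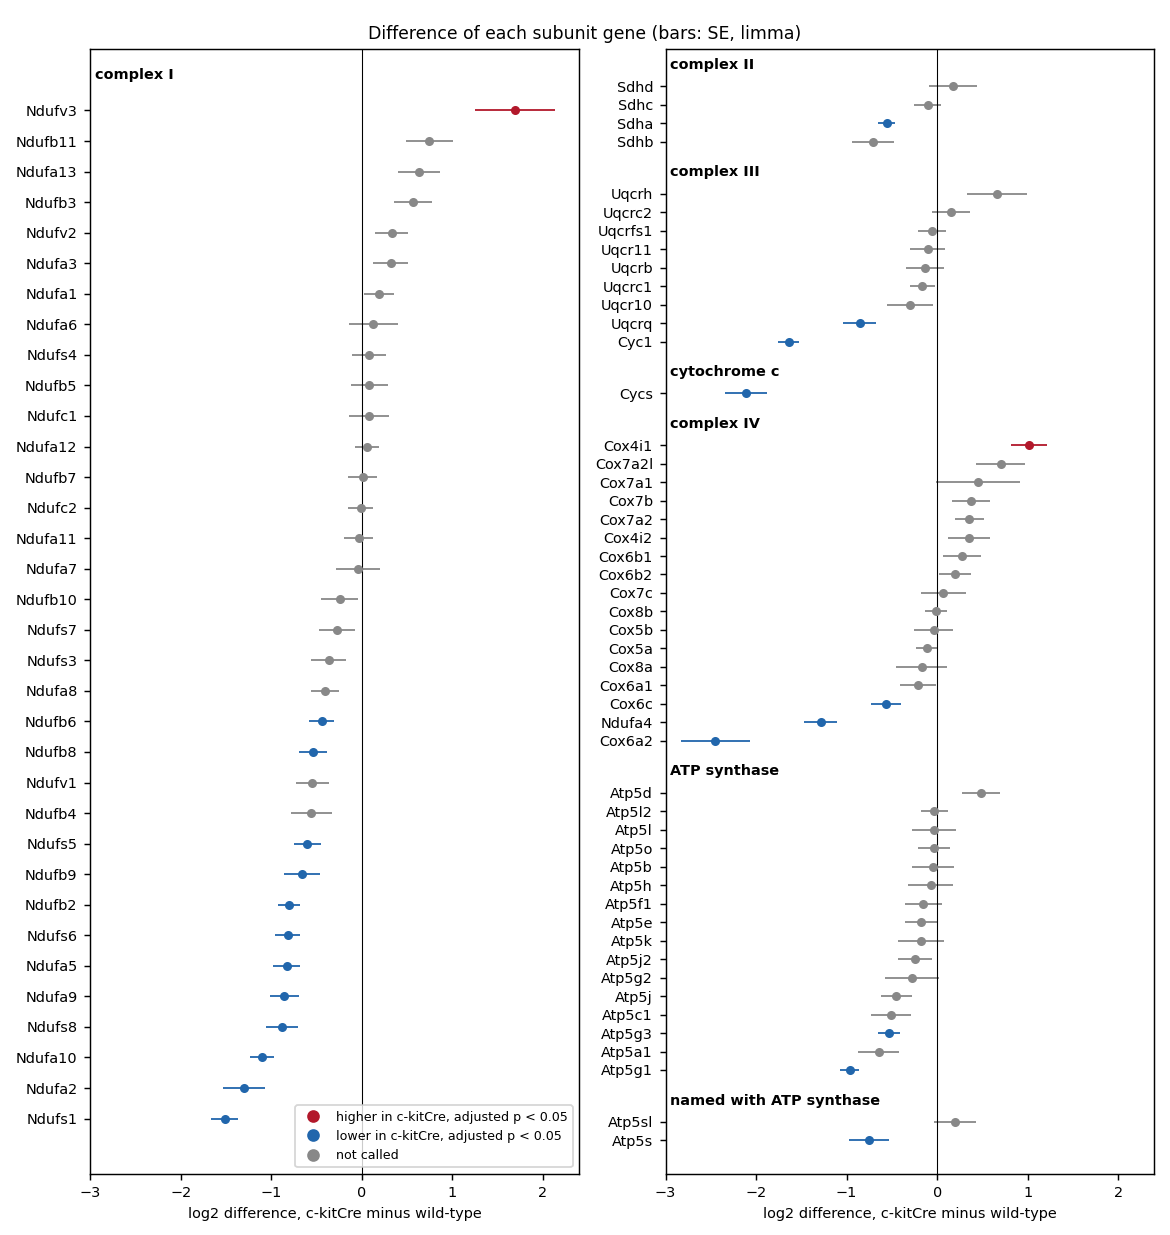
Each point is the log2 difference (horizontal axis, c-kitCre minus wild-type) of 1 subunit gene, with its standard error from limma as a bar, in 83 genes grouped by complex; blue is called lower in the cultures labelled c-kitCre, red called higher and grey not called. Cox6a2 (-2.45) and Cycs (-2.11) lie farthest to the left and Ndufv3 (1.69) and Cox4i1 (1.01) farthest to the right, while most ATP synthase genes lie near 0.

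Cytochrome c is the mobile protein that carries electrons between complexes III and IV and that triggers caspase activation once released. Cycs, its somatic gene (ENSMUSG00000063694, chromosome 6, 50562563 to 50566538), gave 1160, 674 and 1135 scaled reads in the cultures labelled c-kitCre, against 4608, 3920 and 3979 in those labelled wild-type. The groups did not overlap, and culture 2 was the lowest of the c-kitCre group. The log2 difference was -2.11 ± 0.23 (SE; limma, adjusted p = 0.00115), a 4.33-fold lower level, and between -2.47 and -1.86 under the alternatives.

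In complex III, which takes electrons from coenzyme Q to cytochrome c, 2 of 9 genes fell. That is 22.2%, against 29.2% of all genes averaging 50 or more scaled reads. Cyc1, the haem-bearing subunit that hands electrons to cytochrome c (chromosome 15, 76343523 to 76346260), had 1229, 1165 and 1382 scaled reads in the cultures labelled c-kitCre, against 3601, 3985 and 4189 in those labelled wild-type. All values of the c-kitCre group lay far under the lowest wild-type value, and wild-type culture 1 was here the lowest of its group. The difference was -1.64 ± 0.12 (SE; limma, adjusted p = 0.000285). Uqcrq, a small accessory subunit, was the other one called (-0.86 ± 0.18), and this call was lost without c-kitCre culture 3 (limma, adjusted p = 0.0526).

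The other 7 complex III genes were not called. Uqcrh, the acidic hinge subunit that had the highest level per kilobase in the complex, gave 2299, 3405 and 2062 scaled reads in the cultures labelled c-kitCre, against 2510, 1248 and 1296 in those labelled wild-type. These groups overlapped through wild-type culture 1. Its log2 difference was 0.66 ± 0.33 (limma, adjusted p = 0.17), and 0.99 without that culture (limma, adjusted p = 0.0326). Uqcrh was called in no other alternative, and setting that culture aside was chosen after the data were seen. The core subunits Uqcrc1 and Uqcrc2 differed by -0.16 and 0.15, and Uqcrfs1, the Rieske iron-sulfur protein, by -0.06.

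Complex I is the largest of the complexes, with a peripheral arm that oxidises NADH (N module) and reduces coenzyme Q (Q module), and a membrane arm that pumps protons. Of its 35 genes tested, 13 fell (37.1%), 1 rose and 21 were not called, with a median difference of -0.27. Of all genes averaging 50 or more scaled reads 29.2% were called lower. Of those averaging 500 or more it was 33.3%, with a median of -0.22. The N module had 3 lower and 1 higher of 8, the Q module 4 lower of 8, the proximal membrane arm 2 lower of 9 and the distal membrane arm 4 lower of 10. Of the 7 core subunits, which have bacterial counterparts, 3 fell, with Ndufs1 and Ndufs8 among them, with a median of -0.55, and of the 28 accessory subunits 10 fell and 1 rose, with a median of -0.04. Without wild-type culture 1 the complex had 13 genes called lower and 7 higher, and its median was -0.07.

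Ndufs1, the iron-sulfur core subunit of the N module (chromosome 1, 63143596 to 63176833), had 2098, 1596 and 2041 scaled reads in the cultures labelled c-kitCre, against 6084, 5132 and 5123 in those labelled wild-type. The groups were far apart, at a difference of -1.52 ± 0.15 (SE; limma, adjusted p = 0.000818). Ndufa2, an accessory subunit of the same module (chromosome 18, 36742332 to 36744557), had 1333, 1429 and 1074 scaled reads in the c-kitCre group, against 4306, 2736 and 2599 in the wild-type group. Again no values overlapped, with wild-type culture 1 standing above the other wild-type cultures. Its difference was -1.30 ± 0.23 (limma, adjusted p = 0.00656), and -1.07 without wild-type culture 1. In the membrane arm, the accessory subunit Ndufa10 (chromosome 1, 92439010 to 92473860) had 2239, 2403 and 1949 scaled reads in the cultures labelled c-kitCre, against 5244, 4486 and 4415 in those labelled wild-type. The difference was -1.10 ± 0.13 (limma, adjusted p = 0.0016), and the groups did not overlap.

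Ndufv3, an accessory subunit at the NADH-binding end (chromosome 17, 31520115 to 31531331), went the other way. It gave 4374, 5739 and 3379 scaled reads in the cultures labelled c-kitCre, against 2693, 985 and 956 in those labelled wild-type. Every c-kitCre value was above every wild-type value, but wild-type culture 1 lay much nearer to them than its companions did. The difference was 1.69 ± 0.44 (SE; limma, adjusted p = 0.0276), a 3.22-fold higher level, and 2.18 without wild-type culture 1. The call was lost when any 1 of the other 5 cultures was left out, with limma adjusted p-values between 0.0681 and 0.119, and when no filter on low genes was used (0.0889).

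The other complex I genes called lower included Ndufs8, Ndufa9, Ndufa5, Ndufs6, Ndufb2, Ndufb9, Ndufs5, Ndufb8 and Ndufb6, with differences between -0.88 and -0.44. Of the 16 alternatives, Ndufs5 was called in 11, Ndufb9 in 7, Ndufb8 in 6 and Ndufb6 in 2, and the other 5 named here in all 16. Ndufs8 is a core subunit on the path of electrons to coenzyme Q, and Ndufs6 is a zinc-binding subunit added late in the assembly of the N module. Among the genes not called, the NADH-binding core subunit Ndufv1 differed by -0.55 (limma, adjusted p = 0.0611) with no overlap of the groups, and its partner Ndufv2 by 0.33. Ndufa7, the complex I gene with the highest level per kilobase, differed by -0.05 ± 0.24 (limma, adjusted p = 0.901).

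**Figure D2:**
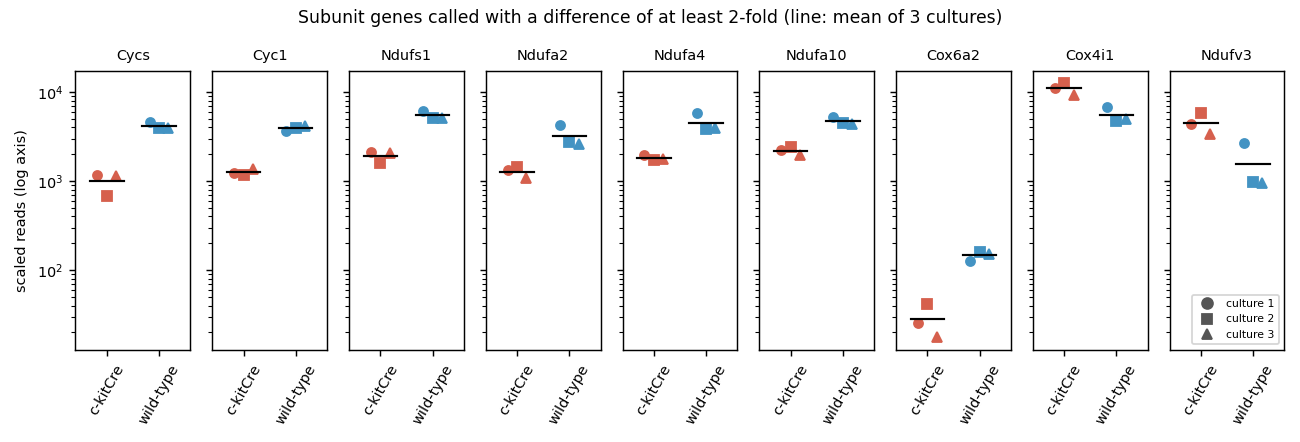
Scaled reads (logarithmic axis) of the 9 subunit genes called with a difference of at least 2-fold, with 1 symbol per culture (circle, square and triangle for cultures 1, 2 and 3) and a line at the mean of each group, the cultures labelled c-kitCre left of those labelled wild-type. In 7 panels the c-kitCre symbols lie below all wild-type symbols, and in Cox4i1 and Ndufv3 they lie above them.

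Complex II is both a respiratory complex and an enzyme of the citric acid cycle, and 1 of its 4 genes fell. That is 25%, against 29.2% of all genes averaging 50 or more scaled reads. Sdha, the flavoprotein that oxidises succinate, had 2956, 2864 and 2846 scaled reads in the cultures labelled c-kitCre, against 4327, 4171 and 4262 in those labelled wild-type. Values within each group were close together, and the difference was -0.56 ± 0.10 (SE; limma, adjusted p = 0.00577). Sdhb, the iron-sulfur subunit, differed by -0.71 ± 0.24 without being called (limma, adjusted p = 0.0599), and its groups did not overlap. The membrane anchors Sdhc and Sdhd differed by -0.11 and 0.18.

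Complex IV, cytochrome c oxidase, hands electrons to oxygen, and its nuclear subunits include isoforms that differ between tissues. Of 17 genes tested, 3 fell (Cox6a2, Ndufa4 and Cox6c), 1 rose (Cox4i1) and 13 were not called. The share called lower was 17.6%, against 19.3% of all genes tested and 29.2% of those averaging 50 or more scaled reads. Cox6c was called in 6 of the 16 alternatives, with limma adjusted p-values up to 0.126. The median difference was 0.07, and it turned to -0.29 when cultures were centred on all genes. Without wild-type culture 1 the complex had 3 lower and 3 higher.

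Cox4i1, the widely expressed isoform of the subunit at which ATP regulates the enzyme (chromosome 8, 120668222 to 120674207), had 11179, 12494 and 9269 scaled reads in the cultures labelled c-kitCre, against 6791, 4690 and 4972 in those labelled wild-type. The groups did not overlap. The difference was 1.01 ± 0.20 (SE; limma, adjusted p = 0.00959), and it stayed between 0.66 and 1.22 under the alternatives. Its counterpart Cox4i2, an isoform known from lung and from low oxygen, was at 6.86, 3.03 and 7.88 scaled reads in the c-kitCre group, against 0.88, 3.04 and 4.98 in the wild-type group, and made up between 0.013% and 0.10% of the pair per kilobase in every culture.

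Cox6a2, the isoform of heart and skeletal muscle (chromosome 7, 128205435 to 128206387), gave 25.7, 41.5 and 17.8 scaled reads in the cultures labelled c-kitCre, against 128, 161 and 150 in those labelled wild-type. All values were low beside those of the general isoform Cox6a1, and the groups did not overlap. The difference was -2.45 ± 0.38 (SE; limma, adjusted p = 0.00404). Cox6a1 had 3697, 3814 and 3404 scaled reads in the c-kitCre group, against 5612, 3838 and 3487 in the wild-type group, and differed by -0.22. Per kilobase of transcript, Cox6a2 made up 0.64 ± 0.24% of the pair in the cultures labelled c-kitCre and 2.93 ± 0.91% in those labelled wild-type (SD, n = 3 each; exact two-sided permutation test, p = 0.1, adjusted p = 0.367). With 3 cultures against 3, 0.1 is the smallest p such a test can give, so none of the 11 isoform shares tested could pass 0.05.

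Of the other tissue isoforms, the muscle isoform Cox7a1 had 14.6, 12.4 and 12.3 scaled reads in the cultures labelled c-kitCre, against 18.9, 5.26 and 8.77 in those labelled wild-type, with overlapping groups. Cox8b, a muscle isoform in mouse, and Cox6b2, a testis isoform, stayed under 6 scaled reads in every culture. The ubiquitous genes Cox6b1 and Cox8a differed by 0.27 and -0.17 and were not called. Cox7a2l, a relative of Cox7a2, had 5148, 7022 and 4582 scaled reads in the c-kitCre group, against 4804, 2808 and 2855 in the wild-type group. Its groups overlapped through wild-type culture 1, with a difference of 0.70 ± 0.27 that was called without that culture (0.96; limma, adjusted p = 0.0231). As a share of the Cox7a group per kilobase, Cox7a2l averaged 58.5 ± 2.46% in the cultures labelled c-kitCre and 52.6 ± 3.70% in those labelled wild-type (SD, n = 3 each; exact permutation test, p = 0.2, adjusted p = 0.367). Cox7a2 differed by 0.36, and was called without wild-type culture 1 (0.49; limma, adjusted p = 0.0396).

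Ndufa4 (chromosome 6, 11900292 to 11907497) had 1949, 1731 and 1770 scaled reads in the cultures labelled c-kitCre, against 5754, 3805 and 3959 in those labelled wild-type. The c-kitCre values lay close together and under all wild-type values, with a difference of -1.29 ± 0.18 (SE; limma, adjusted p = 0.00294). Its paralogue Ndufa4l2, which the symbol rule does not take in and which is known as a gene induced by low oxygen, had 614, 859 and 398 scaled reads in the c-kitCre group, against 29.6, 40.4 and 37.2 in the wild-type group. Ndufa4l2 was thus far higher in all cultures labelled c-kitCre, at a difference of 4.07 ± 0.33 (SE; limma, adjusted p = 0.000406). Per kilobase it made up 15.2%, 22.0% and 11.3% of the pair in the cultures labelled c-kitCre, against 0.29%, 0.60% and 0.53% in those labelled wild-type. This share was chosen after the values were seen and has no test.

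**Figure D3:**
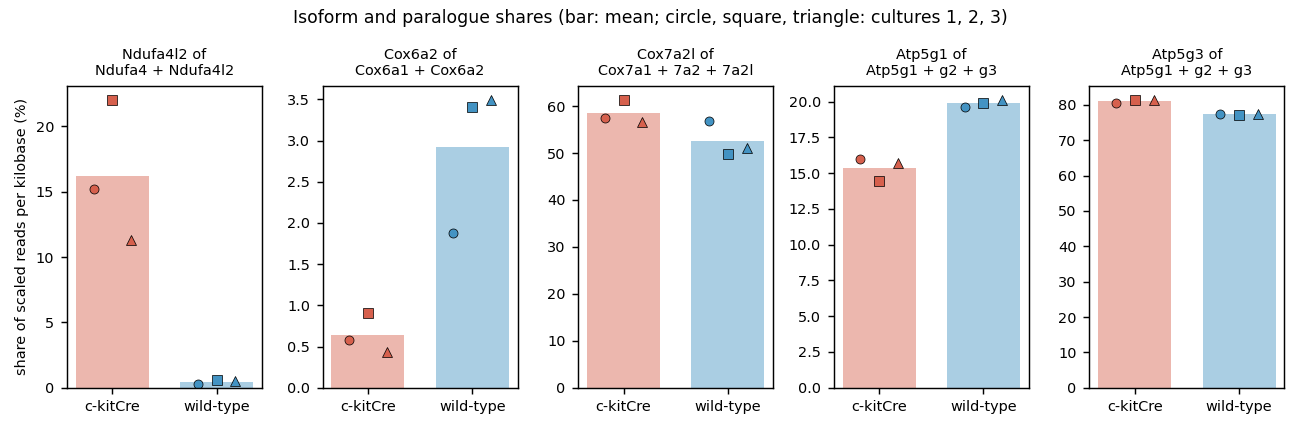
Share of 1 gene in its isoform or paralogue group, in percent of scaled reads per kilobase of transcript (vertical axes from 0, with a scale for each panel), for each culture (symbols) and as the mean (bars), cultures labelled c-kitCre on the left. The Ndufa4l2 share averages 16.2% in the cultures labelled c-kitCre and 0.47% in those labelled wild-type, the Cox6a2 share 0.64% in c-kitCre and 2.93% in wild-type, and the 2 c-ring genes Atp5g1 and Atp5g3 shift by a few percentage points.

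ATP synthase had the smallest share of calls among the 5 complexes. Of its 16 genes 2 fell (12.5%), both of them c-ring genes, and none rose. The share called lower was 19.3% of all genes tested and 29.2% of those averaging 50 or more scaled reads. None of the 5 genes of the F1 head and central stalk, the 4 of the peripheral stalk and the 4 other membrane subunits was called by limma. Of these 13 genes, Atp5a1 and Atp5j had an unadjusted p under 0.05, that is 2 genes. The groups did not overlap in Atp5a1, Atp5c1 and Atp5j (lower) and in Atp5d (higher). Such a lack of overlap was found in 49.5% of all genes tested, and in 8621 of the 13456 averaging 50 or more scaled reads. Among these 13, Atp5l2 is annotated as a processed pseudogene and stayed under 5 scaled reads. Over the 16 genes the median difference was -0.18, and 6 genes were called lower when cultures were centred on all genes. Centred on genes averaging 50 or more scaled reads, 1 was called lower and the median was 0.04. Atp5b, the catalytic beta subunit and the member with the highest level per kilobase of all, had 41286, 47102 and 33053 scaled reads in the cultures labelled c-kitCre, against 47735, 39300.1 and 37566 in those labelled wild-type. These ranges overlapped almost fully, at a difference of -0.04 ± 0.23 (limma, adjusted p = 0.9).

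The c ring turns in the membrane as protons pass, and 3 genes encode the same mature c subunit. Atp5g1 had 1639, 1643 and 1534 scaled reads in the cultures labelled c-kitCre, against 3405, 3017 and 3012 in those labelled wild-type, with no overlap and a difference of -0.97 ± 0.11 (SE; limma, adjusted p = 0.00112). Atp5g3, the most abundant of the 3, had 2216, 2481 and 2128 scaled reads in the c-kitCre group, against 3606, 3130 and 3113 in the wild-type group. Its smaller difference of -0.53 ± 0.12 (limma, adjusted p = 0.0165) was not called when cultures were centred on genes averaging 50 or more (0.0833), nor without wild-type culture 2 or c-kitCre culture 1 or 3 (0.0519 to 0.0549). Atp5g2 was the lowest of them, at 78.4, 105 and 63.1 scaled reads in the c-kitCre group, against 112, 102 and 81.9 in the wild-type group, and these overlapped. The lengths used were 2675.5 bases for Atp5g1, 718.5 for Atp5g3 and 586 for Atp5g2, and the size of the shares per kilobase rests on them. Per kilobase Atp5g1 made up 15.4 ± 0.82% of the c-ring reads in the cultures labelled c-kitCre and 19.9 ± 0.24% in those labelled wild-type (SD, n = 3 each; exact permutation test, p = 0.1, adjusted p = 0.367). Atp5g3 made up 81.0 ± 0.46% in the c-kitCre group and 77.3 ± 0.25% in the wild-type group (SD, n = 3 each; exact permutation test, p = 0.1, adjusted p = 0.367).

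Atp5s, known as coupling factor B, fell by 0.75 ± 0.22 on the log2 scale (limma, adjusted p = 0.0426), a call made under 9 of the 16 alternatives. Atp5sl differed by 0.20 and was not called.

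Between genes, levels are compared per kilobase of the principal transcript. Atp5b was highest at 21128 ± 3684 scaled reads per kilobase in the cultures labelled c-kitCre and 21677 ± 2839 in those labelled wild-type (SD, n = 3 each). Cox4i1 came next over all cultures, with 14544 ± 2148 in the c-kitCre group and 7264 ± 1511 in the wild-type group, followed by Atp5a1 with 7795 ± 1101 in the c-kitCre group and 12295 ± 2763 in the wild-type group. Cox4i1 therefore stood above Atp5a1 in the cultures labelled c-kitCre and below it in those labelled wild-type, in each case by more than the SDs. Over the 79 subunit genes averaging 50 or more scaled reads, the log2 difference had a Spearman correlation of -0.14 with transcript length and of 0.06 with the level, as a description across genes that share the same 6 cultures.

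The spread among cultures differed between the groups. Over those 79 genes the median coefficient of variation was 12.3% in the cultures labelled c-kitCre and 21.2% in those labelled wild-type, against 17.0% in c-kitCre and 17.2% in wild-type cultures over all genes of such levels. Wild-type culture 1 was the highest of its group in 76 of the 79, against 59.3% of all genes, and in 21 of the 23 genes called lower. At the median it stood at 142% of the mean of wild-type cultures 2 and 3, against 112% over all genes. The subunits together took 0.728%, 0.746% and 0.698% of the scaled reads in the cultures labelled c-kitCre, against 0.940%, 0.809% and 0.803% in those labelled wild-type. All c-kitCre shares were below all wild-type shares, also with wild-type culture 1 set aside. As sums of scaled reads, not divided by each culture's total, the groups overlapped. These sums were 226872, 253021 and 195944 in the cultures labelled c-kitCre, against 321261, 234314 and 231185 in those labelled wild-type.

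**Figure D4:**
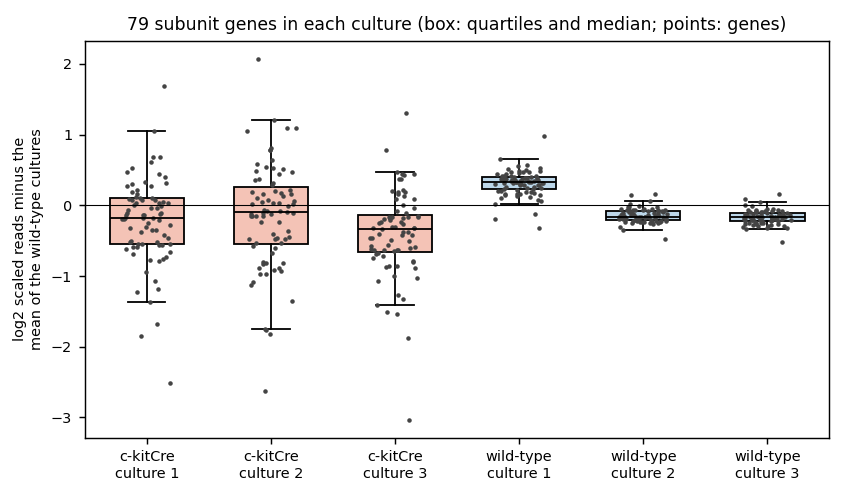
For each culture, the log2 scaled reads of 79 subunit genes minus the mean of the 3 wild-type cultures (points are genes, boxes their quartiles and median, whiskers reach at most 1.5 times the box), cultures labelled c-kitCre on the left. The medians are -0.18, -0.09 and -0.33 in c-kitCre cultures 1 to 3, and 0.34, -0.16 and -0.17 in wild-type cultures 1 to 3, so that wild-type culture 1 stands above all others.

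Markers of other cell types were counted beside the subunits, and their part in the results on the subunits was not tested. Of the endothelial markers 25% were called, all of them higher, and of the cardiomyocyte markers 22.2%, against 35.5% of all genes in either direction. By direction, 16.2% of all genes were called higher and 19.3% lower, and the counts of each marker list below stand beside these shares. In bulk cultures, fewer cells of a type and less RNA per cell cannot be told apart. All 7 fibroblast markers tested of 8 rose, with sums of 163669 to 233458 scaled reads in the cultures labelled c-kitCre and 31601 to 34360 in those labelled wild-type, and Tcf21 was near 0. Of the 8 smooth muscle and pericyte markers 5 rose (4590 to 7238 in the c-kitCre group and 1404 to 2462 in the wild-type group), and of the 8 endothelial markers 2 rose (892 to 1059 in the c-kitCre group and 511 to 852 in the wild-type group). Of these 2, Cdh5 was called in 15 of the 15 alternatives that tested it and Tie1 in 5 of 15. Of the 4 macrophage and leukocyte markers tested of 8, 2 rose (307 to 524 in the c-kitCre group and 169 to 185 in the wild-type group), and Ptprc, Adgre1, Lyz2 and Aif1 were near 0. The rise of Csf1r was called in 16 of 16 alternatives and that of Fcgr1 in 3 of 15. Beside Cox6a2, the cardiomyocyte list is of interest. Of its 9 genes tested, Ryr2 rose and Tnnt2 fell, and their sums with the rest ran from 510 to 846 scaled reads in the cultures labelled c-kitCre and from 2170 to 4082 in those labelled wild-type. Tnnt2, cardiac troponin T, gave most of the sum in the wild-type group alone, at 124, 124 and 119.5 scaled reads in the c-kitCre group, against 3608, 1458 and 1517 in the wild-type group. The sarcomere genes Myh6, Myh7, Tnni3, Actc1, Myl2 and Myl7 were under 9 scaled reads in every culture of both groups. The list also holds Ttn and Nppa, whose values are not reported here. With the filter at a mean of 10 scaled reads, 3 genes of the list were tested, 1 called higher and 1 lower.

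Genes that build, feed or regulate the chain were taken from lists of assembly factors and related functions. Of 124 such genes tested, 60 fell and 8 rose in the cultures labelled c-kitCre, with a median difference of -0.55. Of the 122 that averaged 50 or more scaled reads 60 fell (49.2%), against 29.2% of all genes of such levels. The counts of the single lists below stand beside the same 29.2%. Without wild-type culture 1, an alternative chosen after the data were seen, 57 were lower and 15 higher. The median of all these lists together stayed below 0 under both centrings, at -0.91 and -0.34.

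Complex I assembly factors had 10 of 16 lower and none higher, with a median of -0.91. Ndufaf4, which acts early in the assembly of the Q module, had 211, 136 and 211 scaled reads in the cultures labelled c-kitCre, against 1034, 1242 and 1118 in those labelled wild-type. The gap was wide and free of overlap, at -2.63 ± 0.22 (SE; limma, adjusted p = 0.000404). Ndufaf2, a late assembly factor, differed by -1.59, Ecsit by -0.93 and Tmem70, which also serves ATP synthase assembly, by -0.74, all called lower. Factors for complexes II and III had 6 of 10 lower. Among them Uqcc1, needed for cytochrome b, differed by -1.52, Sdhaf3 by -1.57, Sdhaf2, which attaches the flavin to Sdha, by -0.81 and Bcs1l, which inserts the Rieske protein, by -0.69.

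Complex IV assembly factors had 9 of 24 tested lower and 1 higher. Cox10, the enzyme that makes haem O, had 244, 136 and 227 scaled reads in the cultures labelled c-kitCre, against 1063, 1105 and 1116 in those labelled wild-type, a difference of -2.48 ± 0.24 (SE; limma, adjusted p = 0.000765). The groups were well separated. Taco1, an activator of the translation of subunit I, differed by -2.00, Coa7 by -1.94 and the copper chaperone Sco1 by -1.58. None of the 7 genes for ATP synthase assembly and its partners was called by limma at an adjusted p under 0.05, and 1, Slc25a4, had an unadjusted p under 0.05. Among those, the ADP/ATP carriers Slc25a4 and Slc25a5 differed by 0.50 and -0.29, the inhibitory factor Atpif1 by 0.67 and the assembly factor Atpaf2 by -0.36. Ndufab1, the acyl carrier protein that is also part of complex I, fell by 0.53 on the log2 scale (limma, adjusted p = 0.0243), a call made in 10 of the 16 alternatives. It was lost under quantile normalization, when cultures were centred on genes averaging 50 or more, and without wild-type culture 2 or 3 or c-kitCre culture 1 or 3 (limma, adjusted p up to 0.126).

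Genes that supply electrons to the chain were also among those called. Of 14 citric acid cycle genes 6 fell, among them Dld (-1.47), the lipoamide dehydrogenase shared by several dehydrogenase complexes, Idh3a (-0.97), Suclg1 (-0.92) and Dlst (-0.68), whose call was lost without c-kitCre culture 3 (limma, adjusted p = 0.0591). Of 13 genes of coenzyme Q synthesis and handling 6 fell, among them Coq10b (-2.02), Pdss1 (-1.90), Coq4 (-1.81) and Coq5 (-1.72), although the median of that list was -0.09 and turned positive (0.13) when cultures were centred on genes averaging 50 or more.

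Of 14 regulators of mitochondrial biogenesis 8 fell and 1 rose, and of 10 genes of mitochondrial DNA maintenance 6 fell. Tfam, which packages and transcribes mitochondrial DNA, had 790, 612 and 829 scaled reads in the cultures labelled c-kitCre, against 1506, 1439 and 1391 in those labelled wild-type, with no overlap (-0.97 ± 0.15; limma, adjusted p = 0.00379). Pprc1, a coactivator related to PGC-1, had 657, 389 and 813 in the c-kitCre group, against 2001, 3459 and 3630 in the wild-type group (-2.31 ± 0.35; limma, adjusted p = 0.00371). Both groups of Pprc1 values were wide, and wild-type culture 1 was the lowest of its own. The mitochondrial transcription factor Tfb2m differed by -1.62, and the only rise was that of Esrrg, an oestrogen-related receptor, at low levels of 18.3, 29.5 and 24.9 scaled reads in the c-kitCre group, against 4.17, 3.51 and 2.47 in the wild-type group. Of the maintenance genes, Ssbp1, the single-stranded DNA-binding protein, differed by -1.48, the topoisomerase Top1mt by -1.48, Mterf3 by -1.16 and the nuclease Mgme1 by -1.05.

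The list of outer membrane and cristae genes was split, with 8 lower and 5 higher of 14. Immt, the mitofilin that shapes cristae junctions, had 3667, 3120 and 3051 scaled reads in the cultures labelled c-kitCre, against 11003, 8928 and 8618 in those labelled wild-type (-1.53 ± 0.15; limma, adjusted p = 0.000728). Its groups did not overlap. Tomm22, a receptor of the outer membrane import channel, differed by -1.32 and Samm50, which inserts outer membrane proteins, by -1.29, both called lower. Vdac3, a pore of the outer membrane, was called higher at 0.98, with 8079, 8386 and 6501 scaled reads in the c-kitCre group, against 4359, 3568 and 3684 in the wild-type group. These did not overlap.

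**Figure D5:**
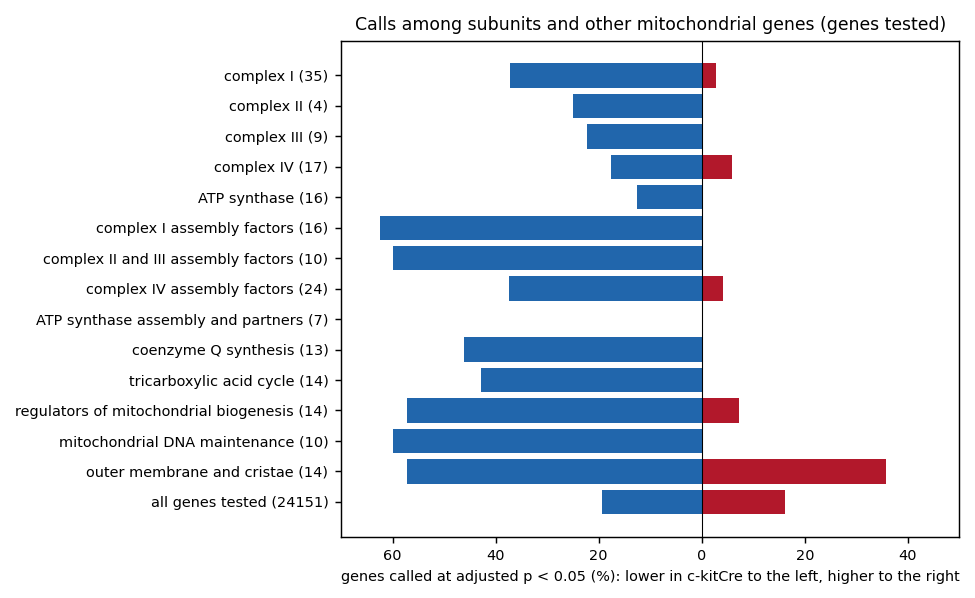
Percentage of the genes tested in each list (number in brackets) that were called at an adjusted p under 0.05, with those lower in the cultures labelled c-kitCre to the left of 0 and those higher to the right. The complexes have 12.5% (ATP synthase) to 37.1% (complex I) lower, the assembly factors of complexes I to IV 37.5% to 62.5%, and all genes tested 19.3% lower and 16.2% higher. Among all genes averaging 50 or more scaled reads, which are not drawn, 29.2% were called lower.

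Some counts may mix reads of more than 1 gene. Exons of 28 of the 86 members share bases with another annotated gene, mostly on the opposite strand, and 18 share at least 100 bases. Whether counting used strand is not given in the sources used here. Among the genes with a difference of at least 2-fold, Ndufs1 shares 489 bases with the noncoding gene Ino80dos, Cox4i1 shares 154 with Emc8, Cox6a2 shares 70 with Itgad and Ndufa2 shares 66 with Tmco6. Several subunit families also have processed pseudogenes of near-identical sequence, and how shared reads were assigned is not given.

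The authors' deposited table of selected genes held 5 of the 86 members, against 4528 of all 34174 genes. In the authors' deposited table, where a positive fold means higher in wild-type, the fold was 5.47 for Cox6a2, 4.33 for Cycs, 3.12 for Cyc1, 2.86 for Ndufs1 and -3.22 for Ndufv3.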

How the data were processed

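Per the labels' protocols, ribosomal RNA was depleted and the RNA of 6 cultures was read as pairs of 100 bp. DESeq and the build mm10 are named in the submitters' processing notes. For the aligner and the counting settings: not given in the sources used here.

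A scaled read is a deposited raw value times its culture's factor. The deposited raw values are a signal that is not whole. Each culture has 2 libraries, and how they were merged is not stated. No count test was therefore run on them. The deposited normalized values are log2 values. Judged from the numbers themselves, they are the log2 of a raw value times its culture's factor (0.825 to 1.52), not below a floor of 4.41, from which a gene-specific constant was subtracted. Outside genes at the floor throughout, 7.74% of values deviate from this by more than 0.01, and member values of 50 or more scaled reads by at most 1.81e-06. The authors' fold is a ratio given as a score in the deposited table of 4528 selected genes. The depth, as summed raw values, was 22371439 to 35963488 per culture. How far single values are limited by counting error is unknown.

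The constant was added back, and limma 3.58.1 (R 4.3.3; lmFit, eBayes with trend, two-sided) compared 3 cultures with 3, without covariates. Genes that averaged under 1 scaled read, and those at the floor throughout, were dropped (10023 of 34174), and p-values were adjusted by Benjamini-Hochberg over the 24151 left. Lengths are those of the principal transcript in GENCODE M21, whose coordinates (mm10) are given, and 32874 IDs matched it. Where a gene had more than 1 principal transcript, the median of their lengths was used. Isoform shares had exact two-sided permutation tests. Older symbols were matched by GENCODE name. Tables came from pandas 2.3.3 and numpy 2.4.6 under Python 3.11.15, permutation tests from scipy 1.17.1 and plots from matplotlib 3.10.9.

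The members and gene lists were chosen with earlier results of these data known. The rule for named genes took all members called with a difference of at least 2-fold, the tissue isoforms, Cycs, Cyc1, the highest gene per kilobase of each complex, and up to 4 genes with the smallest p from each other list. Ndufa4l2 is in a list, and its share was added. A member enters the counts but is not reported here by name. Alternatives were other filters and pseudocounts, quantile normalization, 2 centrings, scaling to raw sums, no trend, the culture number as a block and leaving out each culture.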

Additional observations from a re-analysis of the deposited data

How the results depend on the processing

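Over the alternatives, the calls of 15 of 25 members were made each time. Members called higher (2) numbered 1 with no filter, 9 with quantile normalization, 9 when centred on genes averaging 50 or more, 7 when scaled to summed raw values, and 1 to 11 when 1 culture was left out (11 without wild-type culture 1). Members called lower (23) numbered 36 when centred on all genes, 15 when centred on genes averaging 50 or more, and 14 to 23 when 1 culture was left out (15 without wild-type culture 2, 14 without c-kitCre culture 3). All genes called (8582) numbered 5687 to 9059 when 1 culture was left out, lowest without wild-type culture 2. The share of higher among all calls, 45.6%, became 24.7% when centred on all genes and 59.0% when centred on genes averaging 50 or more. Pathway genes called higher (8) numbered 15 without wild-type culture 1, an alternative added after the data were seen. With the culture number as a replicate block, 8109 genes, 19 members lower and 2 higher were called. Deviations of same-numbered cultures correlated at 0.12, -0.01 and 0.19, so the numbers are not taken to pair the cultures. Differences of isoform shares (percentage points, c-kitCre minus wild-type) changed sign when 1 culture was left out for Cox4i2 (-0.027 to 0.019), Cox7a1 (-0.13 to 0.043) and Cox8b (-0.028 to 0.096), all near 0. With 3 cultures a group, depth and merging leave genes near the floor, such as Cox4i2, Cox6b2 and Cox8b, without a readable difference.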
